A study of Mus musculus with 20 samples.

Results

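The array probes described here gave a higher footpad signal at postnatal day 5 (P5) than at postnatal day 1 (P1) in mice of both genotypes. Between E17.5 and P1, and between P5 and the adult, their mean signal moved by less than 1 log2 unit. Footpad skin was profiled on Agilent 44K NIA mouse arrays, which carry probes of 60 bases, in Tabby mutant mice and in wild-type (WT) mice, all labelled C57BL6/J; the labels give no further detail of the mutant allele. The stages were E17.5, in late gestation, P1, P3, P5 and adult (P56), with 2 biological replicates in each of the 10 groups and 20 arrays in all. Each array compared footpad RNA (Cy3) with a common reference (Cy5), a mix of RNA from 11 mouse cell lines and embryonic stem cells. The labels do not say how many animals a replicate holds, so p-values measure the spread between replicate arrays.

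The mouse has eccrine sweat glands in its footpads alone. The gland buds form in the footpad epidermis before birth, and the duct and secretory coil grow and differentiate in the days after it. Tabby mice lack a working ectodysplasin gene, a signal of the TNF family that skin appendages need, and do not form these glands. Footpads of both genotypes still hold epidermis, dermis, fat, vessels, nerve and muscle, and the skin as a whole changes fast in the first week of life.

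Members were selected on the Cy3 readings themselves. The level of a probe was its log2 Cy3 processed signal minus the array median, so that 0 is the middle probe of an array, and the 4 arrays of a stage were averaged over both genotypes. Of 42006 probes, 27055 were well above background (the scanner software's own call) on all P5 arrays, and 24115 of these stood within 1 log2 unit between E17.5 and P1. Requiring P5 and adult levels within 1 log2 unit left 18350, and requiring Tabby and WT within 0.5 at P5 and in adults left 16047. A P5 minus P1 difference of at least 1 log2 unit left 117 probes, all of which were kept because the rule allowed up to 150. The same rule with its sign turned, for a fall of at least 1, found 76 probes. The flat genotype difference at P5 and in adults, the small steps outside the interval and the rise itself were therefore fixed by the selection and are given as a description.

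The deposited files name these probes by array identifiers alone, so no gene symbol, cell type or pathway is attached to them here, and the labelled tissue could not be checked against marker genes. The probe sequence is what identifies each of them. The first set shows the probes with the 3 largest rises among those detected on all 20 arrays.
Z00010227-1: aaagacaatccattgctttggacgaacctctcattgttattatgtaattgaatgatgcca
Z00046152-1: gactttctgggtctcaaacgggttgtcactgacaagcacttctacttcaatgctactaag
Z00037880-1: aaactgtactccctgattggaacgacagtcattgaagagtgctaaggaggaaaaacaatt

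A second set is shown because its members share a short sequence that the selection did not use. Capitals mark hexamers of the vertebrate telomere repeat read on its C-rich strand. The 6 forms searched were CCCTAA and, starting one base later each time, CCTAAC then CTAACC then TAACCC then AACCCT then ACCCTA. They overlap each other in a longer run of the repeat. These motifs were chosen after the values and sequences of the members had been seen. Of the 17 members with a hexamer, 6 had reached under 40% of their P5 minus P1 difference at P3, and 11 had reached more. All those printed here are among the 6.
Z00077901-1: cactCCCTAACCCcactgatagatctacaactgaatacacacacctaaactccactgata
Z00033234-1: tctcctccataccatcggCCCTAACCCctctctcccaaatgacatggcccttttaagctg
Z00029182-1: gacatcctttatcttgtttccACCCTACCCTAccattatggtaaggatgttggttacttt
Z00031908-1: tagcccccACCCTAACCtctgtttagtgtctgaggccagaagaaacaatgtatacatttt
Z00072951-1: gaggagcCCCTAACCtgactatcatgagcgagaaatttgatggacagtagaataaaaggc

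Another set shows a pair of members that are nearly the same probe, with their longest shared run of 52 bases in capitals. The single substitution between them is A8G, counted from 1 at the 5′ end, with the base of Z00023344-1 first.
Z00023344-1: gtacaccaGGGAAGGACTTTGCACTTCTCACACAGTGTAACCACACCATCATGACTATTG
Z00076602-1: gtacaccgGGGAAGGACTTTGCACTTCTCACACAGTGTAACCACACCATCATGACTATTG

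The P5 minus P1 difference of the 117 probes had a median of 1.28 log2 units and ran between 1.00 and 3.97. It was at least 2 log2 units for 12 probes, between 1.5 and 2 for 24, and under 1.5 for 81. The median was 1.36 in Tabby footpads and 1.22 in WT footpads, with single probes between 0.74 and 4.08 in Tabby and between 0.66 and 4.22 in WT. Taken alone, Tabby arrays gave a difference of at least 1 for 106 probes, WT arrays for 93, and both genotypes for 82. This difference, called the rise below, was larger in Tabby for 66 of the 117. At the threshold, the 3 probes just inside were Z00026192-1, Z00001218-1 and Z00074780-1, at 1.00 each. The 3 just outside were Z00048269-1 at 0.999, Z00071492-1 at 0.997 and Z00030286-1 at 0.991. In whole skin, more cells of a type and more RNA per cell cannot be told apart as the source of a higher signal.

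**Figure D1:**
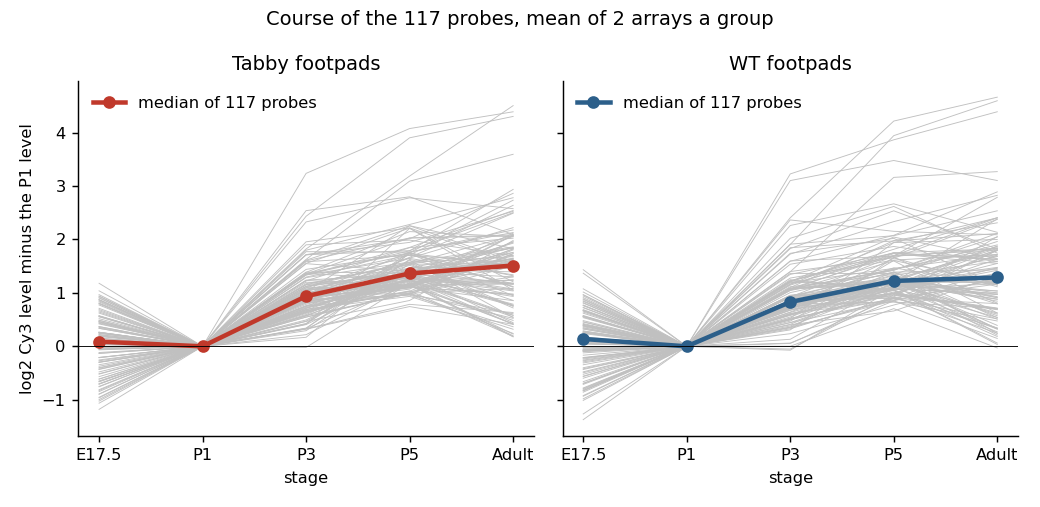
Course of the 117 probes in Tabby footpads (left) and WT footpads (right): the vertical axis is the log2 Cy3 level minus the same probe's P1 level, thin lines are probes (mean of 2 arrays) and the thick line is their median. The median line is near 0 at E17.5, lies at 1.36 in Tabby and 1.22 in WT at P5, and most of the climb is made by P3. The difference between P1 and P5 follows from the selection, which did not use the P3 arrays.

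The members covered a wide range of brightness. Their mean level at P5 had a median of 1.49 and ran between -2.45 and 7.71, so that the dimmest stood below the middle probe of the array and the brightest far above it. The brightest, chosen for that, was Z00037100-1, at 7.71 at P5 and 6.05 at P1. In all, 84 of the 117 were well above background on all 20 arrays and 88 on all 4 P1 arrays. Another 20 were detected on 1 to 3 P1 arrays and 9 on none. For those 9 the P1 level is only a bound, and the largest differences in the set came partly from them: of the 20 largest rises, 10 were detected on all P1 arrays, 4 on 1 or 2 and 6 on no P1 array.

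The probe with the largest rise that was measured on both sides was Z00010227-1. Its level at P1 was -1.30 and -1.34 on the Tabby arrays and -1.88 and -1.84 on the WT arrays. At P3 it was 0.57 and 0.43 in Tabby and 0.36 and 0.74 in WT. At P5 it was 1.79 and 1.94 in Tabby and 2.39 and 2.33 in WT. The 3 stages did not overlap on any array. Tabby read higher than WT at P1 and lower at P5, so that the rise was 3.19 log2 units in Tabby and 4.22 in WT. Its reference signal read 0.90 log2 units higher at P5, but was well above background on only 3 of the 8 P1 and P5 arrays. The adult arrays stood higher again, at 2.66 and 3.71 in Tabby and 2.63 and 2.98 in WT.

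Z00037880-1 had a rise of 2.28 log2 units in Tabby and 2.33 in WT, with close replicates between P1 and P5. Its P1 level was 1.73 on both Tabby arrays and 1.68 and 1.80 in WT. Its P3 level was 3.60 and 3.46 in Tabby and 3.44 and 3.51 in WT, and its P5 level was 3.98 and 4.04 in Tabby and 4.11 and 4.04 in WT. By P3, 76.4% of the difference was present, and the arrays of the genotypes overlapped at P1 and P3. Adult replicates were far apart in Tabby, at 3.82 and 5.21, and read 4.74 and 4.40 in WT. Its reference channel did not move, at 0.00 log2 units between P5 and P1.

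Z00046152-1 had the most uneven P1 readings of the 3. They were 1.29 and 0.60 in Tabby and 1.41 and 0.49 in WT, so that replicates within a genotype differed more than the genotypes did. At P3 it read 3.65 and 3.33 in Tabby and 3.15 and 3.28 in WT, and at P5 3.72 and 3.78 in Tabby and 3.61 and 3.62 in WT. All P3 arrays stood well above all P1 arrays and 87.9% of the difference had been reached. In the reference channel the same probe read 1.30 log2 units higher at P5 than at P1.

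Of the other probes among the 20 largest rises that were detected on all P1 arrays, Z00055985-1 and Z00074218-1 were bright. Z00055985-1 read 5.27 and 5.67 in Tabby and 5.34 and 5.39 in WT at P5, against 3.27 and 3.38 in Tabby and 3.99 and 3.36 in WT at P1. Z00074218-1 read 4.73 and 4.56 in Tabby and 4.41 and 4.55 in WT at P5, against 2.68 and 2.56 in Tabby and 2.96 and 2.60 in WT at P1. Neither probe had an array at P1 that reached its P5 range. Z00023990-1, Z00024577-1, Z00023835-1, Z00063649-1 and Z00072951-1 completed those 10 and had rises between 1.92 and 1.95 log2 units.

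**Figure D2:**
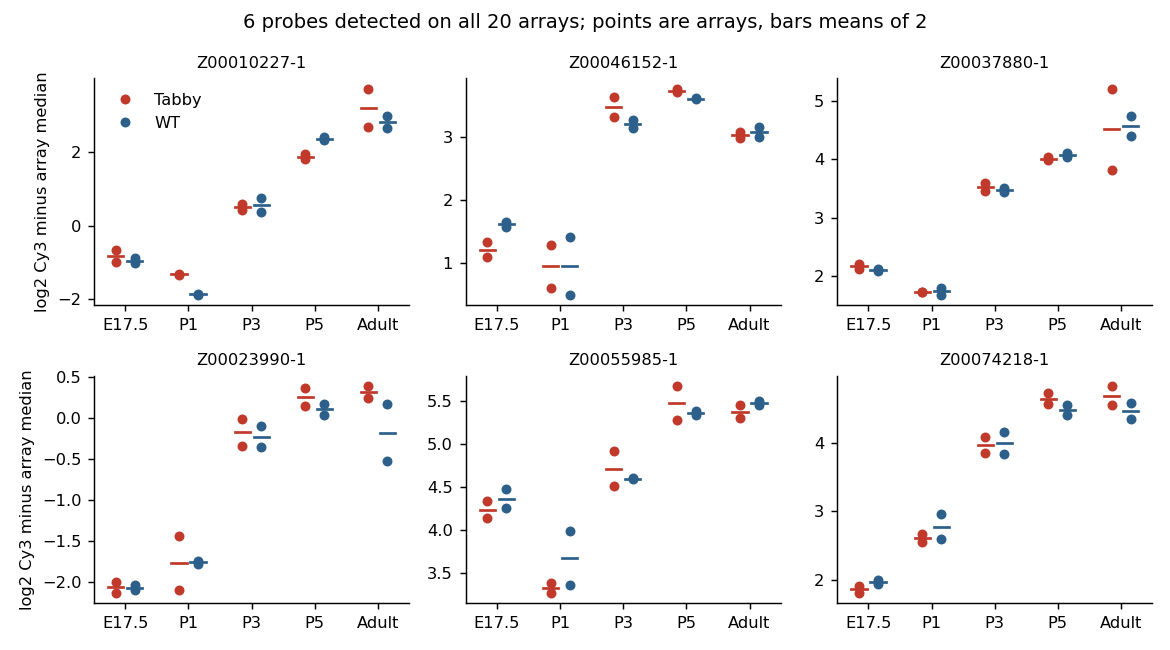
Level on each array for 6 probes detected on all 20 arrays; the vertical axis is log2 Cy3 minus the array median, points are arrays (Tabby red, left; WT blue, right) and short bars are means of 2. For Z00010227-1 and Z00037880-1 the P3 arrays lie between the P1 and P5 arrays, while for Z00046152-1 the P1 replicates are widely spread.

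The probes not detected at P1 read differently when a bound is used on a scale with the normexp offset added. Z00036026-1 had the largest value in the set, with -0.55 and -0.80 in Tabby and -0.85 and -1.15 in WT at P5, against -5.05 and -4.44 in Tabby and -4.88 and -4.84 in WT at P1. None of the P1 arrays was well above background, and against the P1 bound the P5 signal was at least 1.57-fold higher. Each P1 array's bound is the higher of the probe's own signal and the lowest signal that was well above background there. Both are on the scale after normexp correction with an offset of 50. On that scale Z00036026-1 had a P1 mean of 6.14 as measured and 6.21 with the bound, against 6.86 at P5. The offset makes changes of dim signal smaller, so these folds are not folds of the Cy3 level used elsewhere. Against its bound Z00049973-1 was at least 1.52-fold higher at P5, and Z00026505-1 at least 1.24-fold higher. Z00074919-1 was at least 1.26-fold, Z00007910-1 at least 1.22-fold and Z00070828-1 at least 1.12-fold higher at P5. The other 3 of the 9, Z00005284-1, Z00032907-1 and Z00048704-1, had bounds of 1.12, 1.11 and 1.09-fold. Z00030163-1 (rise 3.13, detected on 2 P1 arrays), Z00028511-1 (2.37), Z00038597-1 (2.19) and Z00034805-1 (1.88), each of the last 3 detected on 1 P1 array, lie between these cases.

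The P3 arrays took no part in the selection, so the place of P3 between P1 and P5 is a separate reading, although it is expressed against 2 stages that were selected to differ. The median share of the difference reached at P3 was 67.5% over both genotypes, 71.2% in Tabby and 65.6% in WT. With each P3 array taken alone the median was 74.99% and 67.8% in Tabby and 65.0% and 69.9% in WT, and the arrays of the genotypes overlapped. For 29 probes at least 80% had been reached, for 76 between 40% and 80%, and for 12 under 40%. The share was higher in Tabby for 57 of the 117.

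On single arrays, all 4 P3 arrays stood above all 4 P1 arrays for 99 of the 117 probes. The same separation held for 15.5% of the 32123 probes well above background on at least 2 arrays. All 4 P5 arrays stood above all 4 P3 arrays for 72 members, against 6.8% of those probes. All 4 P5 arrays exceeded all 4 P1 arrays for 114 members, against 17.3%, a count that the selection fixed, as it partly did the other counts because they share the P1 or P5 arrays. Each stage was hybridised on 1 slide of 4 arrays, so stage and slide cannot be told apart; the P1, P3 and P5 slides were scanned on 1 day.

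Early and late probes had distinct readings. Z00035310-1 read 3.29 and 3.24 in Tabby and 3.37 and 3.23 in WT at P3, and 3.24 and 3.11 in Tabby and 3.14 in both WT replicates at P5, so that no gain was left after P3. Z00030658-1, Z00055855-1 and Z00048704-1 were likewise past 100% at P3. Z00025842-1 behaved the other way: it read 3.81 on both Tabby arrays and 3.74 and 3.51 in WT at P1, 3.99 and 4.31 in Tabby and 4.23 and 4.07 in WT at P3, and 5.41 and 5.68 in Tabby and 5.44 and 5.69 in WT at P5. At P3 23.3% of its difference was present, and its Cy5 reading changed by 0.25 log2 units. The 6 members with lower P3 shares, Z00029182-1, Z00077901-1, Z00033234-1, Z00061359-1, Z00031908-1 and Z00063649-1, all had Cy5 readings at least 0.8 log2 units higher at P5, so this probe is not typical of the late ones. Z00061359-1 was well above background in Cy5 on only 3 of the 8 P1 and P5 arrays. Replicates of some late probes were far apart. Z00033234-1 read 3.62 and 2.70 in WT and 2.53 and 2.87 in Tabby at P1. At P3 it read 3.58 and 2.75 in WT and 2.57 and 3.41 in Tabby. Z00077901-1, Z00031908-1 and Z00063649-1 also read highest on WT replicate 1 at P1, and on that array and Tabby replicate 2 at P3. Z00029182-1 and Z00061359-1 did not read highest on WT replicate 1 at P1. Apart from Z00063649-1, the probes in this paragraph were chosen after their values were seen.

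**Figure D3:**
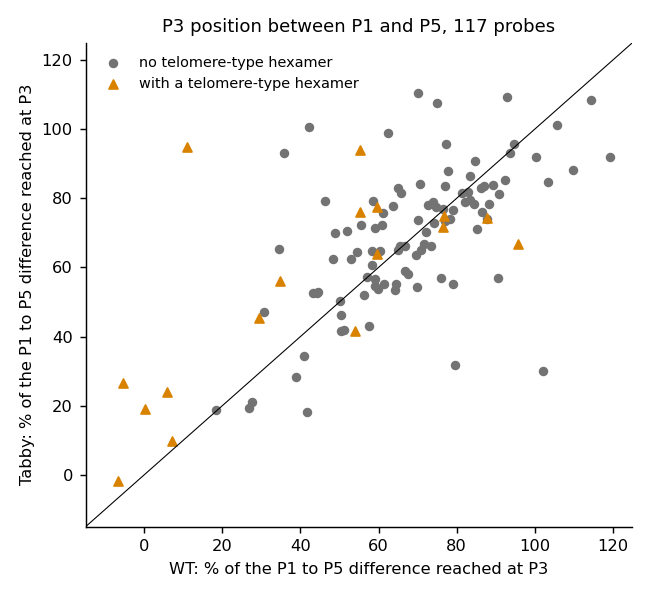
Share of the P1 to P5 difference reached at P3, in percent, in WT (horizontal) and Tabby (vertical) footpads, 1 point per probe; triangles are the 17 probes with a telomere-type hexamer. Points scatter on both sides of the diagonal, 57 of 117 above it, and the lowest shares, under 40% in both genotypes together, hold 6 of the triangles.

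Outside the interval the members differed from each other within the limits set. Adult levels were above P5 for 53 probes and below for 64, by at least 0.5 log2 units for 29 and 32 of them. All 117 stood above P1 in adults, which the limits of the selection had fixed in advance. The adult minus P5 difference was 0.98 log2 units for Z00023835-1, the highest, and -0.96 for Z00019815-1, the lowest and chosen for that. Before the interval, P1 lay below E17.5 for 69 probes. It was at least 0.5 lower for 33 and at least 0.5 higher for 21.

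Tabby was compared with WT at P3, P1 and E17.5, stages at which the selection had set no genotype limit. The test was limma on log2 ratios of footpad over reference with Benjamini-Hochberg adjustment over 32121 probes, and a call was an adjusted p under 0.05. At P3 none of the 117 was called, where 0.237% of all probes tested were. At P1 none was called, against 0.0342% of all probes, and at E17.5 none, against 0.0125%. The extra or missing step in Tabby from P1 to P3, tested as the interaction, gave no call among the members and 0.0187% of all probes. On each slide WT held positions 1 and 2 and Tabby positions 3 and 4, so genotype and position cannot be told apart. At background shares this low a count of 0 among 117 does not set the members apart.

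By the share within 0.5 log2 units, the genotype differences of the members at P3 and P1 were like those of the array as a whole. Nearly all probes lie within that limit, and at P3 the unadjusted share below was lower for members. At P3 the median Tabby minus WT difference was 0.01 log2 units and single probes ran between -0.55 and 0.36, with 99.1% of members against 99% of all probes within 0.5. The 95% confidence interval lay within 1 log2 unit of 0 for 115 probes and within 0.5 for 74. At P1 the median was -0.01 and 99.1% of members against 99.4% of all probes lay within 0.5. At unadjusted limma p under 0.05 there were 1, 3, 20 and 2 members in the P3, P1, E17.5 and step contrasts. These are 0.855%, 2.56%, 17.1% and 1.71% of the members, against 9.4%, 4.27%, 11.5% and 2.37% of all probes tested. The smallest limma adjusted p-values were 0.297, 0.638, 0.433 and 1.00. The E17.5 differences were wider, between -0.88 and 1.06, with 84.6% of members against 94.9% of all probes within 0.5. One of the 2 Tabby arrays at E17.5, replicate 2, stands apart from the others: the SD of the replicate difference over all probes was 0.425 in that group, against 0.114 to 0.309 elsewhere, and it had 43 outlier spots where other arrays had 1 to 11. Without it no member was called at E17.5, as with all arrays; without replicate 1, which leaves it as the only Tabby array of that stage, 45 members (38.5%) and 25.5% of all probes were called.

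**Figure D4:**
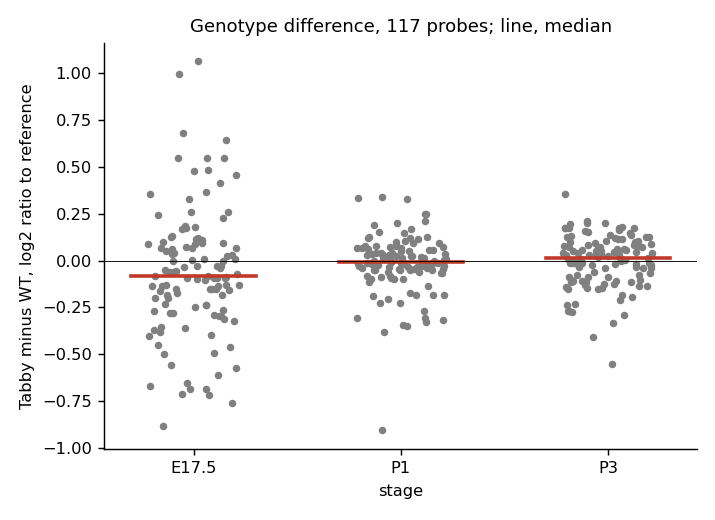
Tabby minus WT difference of the log2 ratio to the common reference for the 117 probes at E17.5, P1 and P3; points are probes and the line is their median. The P1 and P3 points cluster within 0.5 of 0 apart from 1 probe each, and the E17.5 points spread between -0.88 and 1.06.

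A pair of members, chosen after their values were seen, stood lower in Tabby at a stage the selection left free. Z00025394-1 read 0.81 and 0.84 in Tabby and 1.30 and 1.20 in WT at E17.5, and -0.25 and -0.46 in Tabby and 1.06 and 0.92 in WT at P1. At P3 it read 1.48 and 1.23 in Tabby and 1.71 and 1.93 in WT, so the genotypes did not overlap at any of the 3 stages. Its P1 difference of -0.91 on the ratio scale had a limma adjusted p of 0.638, and it passed with Cy3 levels alone, at -1.34 and a limma adjusted p of 0.0339. Its reference signal was not well above background on any P1 or P5 array, so the ratio rests on the footpad channel. That dim signal also read lower in Tabby at P1, at -4.81 and -4.28 against -3.73 and -4.03 in WT. Z00055855-1 read 2.53 and 2.32 in Tabby and 3.12 and 3.02 in WT at P3. The genotypes did not overlap, and the ratio difference of -0.55 had an adjusted p of 0.58 in limma and 0.0465 when the P3 stage was fitted alone. Over both genotypes its P3 level lay above its P5 level.

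Per the labels the same reference mix was hybridised on every array, so its channel gives a second reading of each probe. Among the members, Cy5 was higher at P5 than at P1 by at least 0.5 log2 units for 25 probes, by at least 1 for 9, and lower by at least 0.5 for none. Among probes detected in Cy5 on all P1 and P5 arrays and in Cy3 on all P5 arrays, the share with such an increase was 19.5% of 87 members and 0.821% of 24606 probes. The median Cy5 change was 0.09 log2 units for these members and 0.01 for all such probes. The reference stayed within 0.2 log2 units for 65 of the 117 members.

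The probe with the largest reference change was Z00077901-1, which, like the next 2, was chosen for that change. In Cy5 it read 1.73 and 0.96 on the Tabby arrays and 1.44 and 1.18 on the WT arrays at P5, against -1.24 and -0.91 on the Tabby arrays and 0.31 and -1.29 on the WT arrays at P1. In Cy3 it read 3.71 and 3.39 in Tabby and 3.15 and 3.31 in WT at P5, against 1.57 and 2.04 in Tabby and 3.07 and 1.69 in WT at P1. The WT replicate 1 array was the highest of the P1 arrays in both channels, and at P3 both channels were highest on WT replicate 1 and Tabby replicate 2. On the ratio scale its P5 minus P1 difference was -0.06 log2 units. Z00037100-1 and Z00020851-1 followed, with Cy5 changes of 1.597 and 1.505 log2 units beside Cy3 changes of 1.66 and 1.72. Their ratio differences were 0.77 and 0.72. The ratio was formed after normexp correction with an offset of 50. For both probes it was larger than the Cy3 change minus the Cy5 change.

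**Figure D5:**
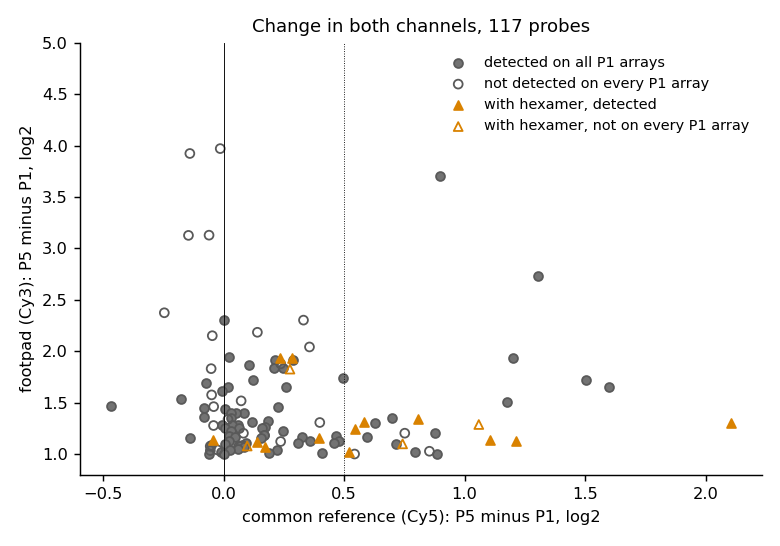
Change between P1 and P5 (P5 minus P1, log2) in the common reference (horizontal) and in the footpad channel (vertical) for the 117 probes; triangles carry a telomere-type hexamer and open symbols were not detected on every P1 array. Most points lie near 0 on the horizontal axis, 25 lie at or beyond 0.5 (dotted line), and Z00077901-1 is the rightmost at 2.11.

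Over the whole set, the P5 minus P1 difference of the log2 ratio had a median of 0.80 and ran between -0.06 and 2.25, smaller than on the Cy3 scale. The normexp offset also shrinks the change of a dim channel on this scale. A dim footpad signal is pulled toward 0. Where a dim reference rose, as for Z00037100-1 and Z00020851-1, the ratio difference was larger than the Cy3 change minus the Cy5 change. The counts on the ratio scale are therefore not corrected in full for such a rise. The ratio difference was at least 1 for 27 probes and at least 0.5 for 83. Of the 34 probes under 0.5, 21 were among the 29 not detected on all P1 arrays and 10 among the 25 whose reference was at least 0.5 higher. Of the 68 probes detected on all P1 arrays whose Cy5 rise stayed under 0.5, 8 were under it. In limma, 103 of the 117 were called higher at P5 than at P1 against 16.4% of all probes tested; the same contrast chose the members, so nothing is read from that count.

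The hexamers shown above were found in 17 of the 117 members, or 14.5%, and in 4.77% of all probes, on the strand printed. The reverse complements were in 3 members, or 2.56%, and in 3.59% of all probes, and no member held both. Of the 25 members whose reference was at least 0.5 higher at P5, 9 carried a hexamer, and of the other 92, 8 did. Only 17 of the 25, with or without a hexamer, were well above background in Cy5 on all P1 and P5 arrays. Of the 12 members under 40% at P3, 6 carried a hexamer and 8 had a reference at least 0.5 higher; of the other 105, 11 and 17 did. Members with a hexamer had a median P3 share of 49.2%, a median Cy5 change of 0.52 and a median ratio difference of 0.51 log2 units. For members without one these were 68.7%, 0.09 and 0.84.

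The same split was present across the array with the members counted in. As the motifs were chosen from the members, it is not an independent reading. Among probes detected as above, Cy5 was at least 0.5 higher at P5 for 4.1% of 1195 probes with a hexamer and for 0.654% of 23411 without. For 876 probes with the reverse complement alone the share was 0.457%. Z00029182-1 and Z00033234-1, chosen after their values were seen, are examples among the members detected in this way, with Cy5 changes of 1.11 and 1.21 log2 units and P3 shares of -4.03% and 13.2%. The part of the hexamers in these readings was not tested.

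The reference also differed between slides. On the E17.5 slide, 23.5% of the probes detected in Cy5 on the other 16 arrays stood at least 1 log2 unit from their mean on those arrays, while the P1, P3, P5 and adult slides gave 0.775%, 0.739%, 0.745% and 2.07%. Of 86 members so detected, 35 were that far off at E17.5. Z00055855-1 is an extreme case, with Cy5 levels of -3.63 and -2.36 on the Tabby arrays and -5.06 and -3.67 on the WT arrays at E17.5 and between 5.83 and 6.19 on every other array. For this reason levels across stages are given here on the Cy3 scale, and ratios are used within a stage or between P1, P3 and P5, apart from a repeat of the selection on ratios.

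Other sequence features were searched in the same way. The polyadenylation signal AATAAA was in 14 members, or 12%, against 6.93% of all probes, and ATTAAA was in 7, or 5.98%, against 3.19%, both searched on the printed strand alone. The median GC content of the probe was 45% for members and 43.3% for all probes. Each member had 1 spot on the array, and none was saturated or marked as an outlier on any array.

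Some members overlap in sequence and were read on separate spots. Z00023344-1 and Z00076602-1, the pair printed above, had rises of 1.52 and 1.31 log2 units, and each was detected on 1 P1 array. By group means, the rise was 1.58 in Tabby and 1.46 in WT for Z00023344-1, and 1.76 in Tabby and 0.85 in WT for Z00076602-1. P3 shares were 81.5% in both genotypes for Z00023344-1, and 100.5% in Tabby and 42.1% in WT for Z00076602-1. The WT values of Z00076602-1 lean on 1 array. At P1 it read -0.92 and -2.63 in WT and -2.86 and -2.99 in Tabby. In Cy5 the same WT replicate 1 array read -1.25, against -3.48 on WT replicate 2. Z00024130-1 and Z00045886-1 share 30 bases and were detected on all 20 arrays, with rises of 1.21 and 1.16 and P3 shares of 45.2% and 48.1%. The reference signal of both probes of that pair was also higher at P5, by 0.88 and 0.59 log2 units. Z00032919-1 and Z00050391-1 align over 49 bases with 2 substitutions and had rises of 1.04 each. These 3 pairs share sequence and may not be separate observations.

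In 3 more cases a member shared a run of at least 25 bases with a probe outside the set. Z00038597-1 (rise 2.19) shares 28 bases with Z00055332-1, which had a rise of 2.18 and was left out because Tabby exceeded WT by 0.54 at P5. Z00056445-1 (1.08) shares 27 bases with Z00037843-1, at 0.65. Z00032919-1 (1.04) shares 34 bases with Z00057507-1 and Z00058935-1, at -0.10 and 0.13, neither of which was above background at P1 or P5. Z00057507-1 and Z00058935-1 carry the same 60 bases.

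A position could be given to 2 members, those whose whole sequence lies in a RefSeq promoter window of the GRCm38.p6 assembly, as it did for 267 of all probes (0.636%). Z00072951-1 matched chr5:137612512-137612571 on the minus strand. These bases lie in the window before the long non-coding RNA gene Gm36266, which runs on the plus strand, and inside the span of Fbxo24, which encodes an F-box protein. The probe read 1.37 and 1.67 in Tabby and 1.57 and 0.97 in WT at P5, against -0.88 and -0.60 in Tabby and 0.36 and -1.03 in WT at P1. It holds both AATAAA near its 3′ end and the hexamers in capitals above, and WT replicate 1 was again the highest P1 array.

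Z00061521-1 matched chr10:95324191-95324250 on the plus strand, in the window of Cradd, which lies on the minus strand and encodes an adaptor protein of the cell death machinery; the RefSeq gene table has no gene over these bases. Its sequence is shown with ATTAAA in capitals.
Z00061521-1: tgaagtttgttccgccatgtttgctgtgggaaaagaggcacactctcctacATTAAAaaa
It read -0.78 and -0.87 in Tabby and -0.78 and -0.89 in WT at P5, against -2.01 and -1.94 in Tabby and -1.95 and -2.08 in WT at P1. The genotypes overlapped at both stages and the stages did not, and its reference changed by 0.05 log2 units. Which transcripts these 2 probes read is not stated in the files.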

How the data were processed

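Spot intensities of 20 two-colour arrays, deposited as Agilent Feature Extraction output (version 9.5.1.1 per the file headers), were read with limma 3.58.1 in R 4.3.3. The Cy3 and Cy5 processed signals are intensities after the scanner software's background and dye correction, per the file headers, and the deposited log10 ratio is Cy5 over Cy3. Control spots (1417) were left out and spots of 1 probe averaged. Levels are log2 Cy3 minus the array median. Ratios of Cy3 over Cy5 came from normexp correction (offset 50) and loess within each array. Probes well above background in Cy3 on at least 2 arrays were tested in a model of 10 group means with empirical Bayes moderation.

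The deposited value table holds log10 values for 25030 probes, 80 of them members. They follow the deposited log10 ratio with its sign turned (Cy3 over Cy5), within 0.001 of a constant per probe for 64.4%, so their direction is settled and their centring is not known; column medians were 2.58 and 2.59 (Tabby) and 2.59 and 2.58 (WT) at E17.5, 2.57 in all at P1, 2.58 and 2.57 (Tabby) and 2.57 and 2.58 (WT) at P3, 2.57 and 2.58 (Tabby) and 2.58 and 2.59 (WT) at P5 and 2.53 in all adults.

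The members and lists were chosen with earlier results of these data known. Gene lists could not be applied without gene names. The named probes are the 20 largest rises, any called member (there was none), and 3 on each side of the threshold; every other probe was chosen after values or sequences were seen. Alignments between members needed 40 bases with at most 10% substitutions, shared runs 25 bases. Replicate numbers did not pair samples: over 45 pairs of groups the correlation of same-numbered deviations ran between -0.242 and 0.224, with 9 over 0.1. Sequences and positions come from the deposited files and RefSeq.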

Additional observations from a re-analysis of the deposited data

How the results depend on the processing

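No member was called for genotype at P3 with limma. Without background subtraction 1 member (0.855%), Z00055855-1, was called, where 1.21% of all probes were called. It was also the only member called with scale normalization (0.184% of all probes) and with the P3 stage fitted alone (0.978%). With the deposited value table it was again the only member called, where 287 probes were called. Array weights called 3 members (2.56%), adding Z00017717-1 and Z00024657-1, where 9.62% of all probes were called. At P1, 1 member, Z00025394-1, was called without background subtraction (0.187% of all probes) and on Cy3 alone with either centring (1 each). On Cy3 alone 0.224% of all probes were called with the array median and 0.246% with the 75th percentile. At E17.5, 1 member, Z00055855-1, was called with the deposited table, where 21 probes were called. Leaving out 1 array at a time gave between 0 and 0 called members at P3, P1 and for the step, and between 0 and 45 at E17.5. The 45 (38.5% of members, against 25.5% of all probes) came without Tabby replicate 1, which leaves Tabby replicate 2 alone at that stage, assumed to vary like the other groups. The replicate block gave 0 members for each genotype contrast and 9786 called probes for P5 minus P1, against 9824 without it. That count was 5727 with scale normalization, and between 7407 and 11968 leaving out 1 array.

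The selection found 50 probes on the log2 ratio, 18 of them among the 117. That repeat compares E17.5 with P1 on ratios, where the reference of 35 of 86 members was off by at least 1 log2 unit at E17.5. On Cy3 levels it found 36 with a threshold of 1.5, and between 100 and 137 leaving out 1 array. The median rise was 0.80 on the ratio and between 1.22 and 1.33 leaving out 1 array. The median P3 share in Tabby was 66.0% on the ratio and between 67.5% and 74.99% leaving out 1 array; in WT the range was 63.2% to 69.9%. With the 48 members detected on all P1 arrays and with Cy5 within 0.2, an alternative chosen after seeing the data, it was 74.1% in Tabby and 69.9% in WT. Alternatives were run for the 20 largest rises, the 3 just inside the threshold and the 3 largest reference changes. Of these 26, Z00077901-1 turned to -0.0606 on the ratio and 24 others moved by more than the replicate spread; the cause was not tested. Dim signal at P1 limits the size of the rise for the 29 probes not detected on all P1 arrays.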
